A study of Mus musculus with 24 samples.

Results

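The circadian clock output factors are 8 genes that lie downstream of, or next to, the molecular clock: Dbp, Tef, Hlf, Nfil3, Usp2, Bhlhe40, Bhlhe41 and Rora. They were taken by gene symbol from a table of read counts of 18669 genes in mouse quadriceps femoris muscle. The rule itself used no measured value, but the genes were picked with earlier results of these data known. All 8 members were in the table and all 8 passed the filter on low counts, which left 13754 genes for testing.

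RNA of 24 mice was sequenced, with 2 mice in each of 12 groups, and all muscles were taken 4 h after treatment. The 3 genotypes were wild type, R6/2 and Hsf1-/-, all given as CBA x C57BL/6 F1. R6/2 mice model Huntington's disease and carry a transgene with exon 1 of mutant human HTT under the human HTT promoter, and Hsf1-/- mice lack heat shock factor 1, the main transcription factor of the heat shock response. HS mice were anaesthetised with isoflurane and wrapped, apart from the head, in a heating pad that held the core temperature at 41.5 °C for 15 min. Their controls had the same anaesthesia and pad at 36.9 °C for 21 min. HSP990 mice received NVP-HSP990, an inhibitor of the chaperone HSP90, at 12 mg/kg by oral gavage, suspended in methyl cellulose and saline. The vehicle mice were gavaged with saline. Wild type and R6/2 mice were 12 weeks old in every group. Hsf1-/- mice were 10 weeks old in the control and HS groups and 8 weeks old in the vehicle and HSP990 groups, so that genotype and age cannot be told apart in comparisons of Hsf1-/- with wild type mice. According to the study's methods, HS and HSP990 were both given within the same hours of the morning, so that tissue was taken in the afternoon. The hour for each single mouse is not given in the sources used here.

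In mammalian cells the activators CLOCK and BMAL1 bind E-boxes and drive the genes of their own repressors, the PER and CRY proteins, which gives a daily rhythm of transcription. DBP, TEF and HLF are bZIP activators that carry this rhythm to D-box genes, and NFIL3 (E4BP4) is a bZIP repressor that binds the same D-boxes at the opposite phase. BHLHE40 and BHLHE41 (DEC1 and DEC2) are E-box repressors, RORA is a nuclear receptor that activates Bmal1 and competes with the REV-ERB repressors, and USP2 is a deubiquitinase whose gene is under strong clock control in many tissues. In skeletal muscle these factors connect the clock with fuel use and with hormonal signals such as glucocorticoids.

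Promoter windows for 7 of the 8 members were found in the RefSeq table of promoter sequences (build GRCm38.p6), 8 windows in all because Tef has a pair. Bhlhe40 had no entry. Each window spans 250 bases before to 50 bases after a start site, and the 250 bases before the start are printed here, 5′ to 3′ on the strand of the gene. They are shown for Nfil3 and Usp2, the members called after HS, for Bhlhe41, Hlf and one of the Tef windows, which held a motif, and for Dbp, the member with the largest difference between R6/2 and wild type mice. Capitals mark a match to a searched motif.
Nfil3 (GRCm38.p6 chr13:52981040-52981289, - strand): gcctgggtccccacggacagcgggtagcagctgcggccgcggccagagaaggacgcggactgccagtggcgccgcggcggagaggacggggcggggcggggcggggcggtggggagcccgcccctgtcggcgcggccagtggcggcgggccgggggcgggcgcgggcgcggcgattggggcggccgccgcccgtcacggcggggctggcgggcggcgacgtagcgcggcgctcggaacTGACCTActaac
Usp2 (GRCm38.p6 chr9:44084670-44084919, + strand): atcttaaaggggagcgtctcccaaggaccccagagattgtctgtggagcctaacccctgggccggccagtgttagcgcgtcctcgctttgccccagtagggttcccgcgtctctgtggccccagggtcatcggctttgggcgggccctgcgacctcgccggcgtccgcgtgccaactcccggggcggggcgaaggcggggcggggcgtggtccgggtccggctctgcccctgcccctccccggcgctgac
Bhlhe41 (GRCm38.p6 chr6:145865421-145865670, - strand): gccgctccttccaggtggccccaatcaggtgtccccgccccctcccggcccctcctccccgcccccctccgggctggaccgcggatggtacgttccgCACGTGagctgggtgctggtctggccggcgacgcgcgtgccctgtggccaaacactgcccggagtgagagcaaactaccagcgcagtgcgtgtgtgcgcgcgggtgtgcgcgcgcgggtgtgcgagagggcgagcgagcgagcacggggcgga
Hlf (GRCm38.p6 chr11:90390918-90391167, - strand): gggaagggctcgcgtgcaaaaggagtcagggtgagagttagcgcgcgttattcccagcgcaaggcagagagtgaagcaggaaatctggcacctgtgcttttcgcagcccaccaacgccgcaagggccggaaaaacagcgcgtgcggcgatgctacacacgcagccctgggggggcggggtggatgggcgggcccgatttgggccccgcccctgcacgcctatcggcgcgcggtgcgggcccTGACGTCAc
Tef (GRCm38.p6 chr15:81811164-81811413, + strand): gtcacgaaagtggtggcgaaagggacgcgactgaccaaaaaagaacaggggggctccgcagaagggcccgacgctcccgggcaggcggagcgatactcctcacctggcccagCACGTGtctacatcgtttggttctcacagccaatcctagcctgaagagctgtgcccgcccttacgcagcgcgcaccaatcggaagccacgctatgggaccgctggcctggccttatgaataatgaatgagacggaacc
Dbp (GRCm38.p6 chr7:45704997-45705246, + strand): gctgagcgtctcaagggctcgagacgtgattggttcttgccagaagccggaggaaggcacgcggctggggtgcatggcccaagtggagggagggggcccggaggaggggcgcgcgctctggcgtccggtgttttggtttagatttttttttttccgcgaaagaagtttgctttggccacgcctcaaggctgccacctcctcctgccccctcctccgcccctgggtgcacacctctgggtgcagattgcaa
The motifs, read on both strands, were the E-box CACGTG, the D-box TTATGTAA or TTACGTAA, the ROR element TAGGTCA, the cyclic AMP response element TGACGTCA and the paired heat shock unit GAANNTTC or TTCNNGAA. No base was shared by matches to different motifs. An E-box lay in the Bhlhe41 window and in both Tef windows, against 7.15% of all 32851 windows. The Nfil3 window held a ROR element on the reverse strand, which 2.61% of all windows held, and the Hlf window held a cyclic AMP response element, found in 1.79%. A D-box (1.06% of all windows) and a heat shock unit (15.1%) were found in 0 of the 8 windows of these genes. The letters are a description of these windows only.

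Library totals were 22450177 to 46599238 counts, and the members were counted well within this depth, from 245 reads (Rora in an R6/2 control mouse) to 18414 reads (Usp2 in an Hsf1-/- HSP990 mouse). Levels are given as CPM, read counts relative to library totals that TMM scaling has corrected for composition. Hsf1 itself stood at 52.9 to 68.6 CPM in wild type mice, 45.3 to 53.7 CPM in R6/2 mice and 21.1 to 29.0 CPM in Hsf1-/- mice, so that the Hsf1-/- libraries were the lowest but not at 0. Which exons the deletion removes is not given in the sources used here. All 8 markers of skeletal muscle were abundant in every library, the lowest being Tnni2 at 1850 to 10300 CPM. The summed level of 4 Y-linked genes was 0 to 0.0881 CPM in the control and HS groups of wild type and R6/2 mice and 163 to 230 CPM in every other group. Each treated group therefore matched its own control in this respect, whereas in wild type and R6/2 mice the HS and HSP990 experiments differed in it, and so did untreated Hsf1-/- and wild type mice in the control groups. In those comparisons its part cannot be told apart from the groups. In bulk tissue, fewer cells of a type and less RNA per cell cannot be told apart.

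Compared per length of exon, Usp2 was the most abundant member, with a mean over the 24 libraries of 77.6 CPM per kb (33.3 to 136 CPM per kb). Bhlhe40 followed at 64.2 CPM per kb, Nfil3 at 47.4 CPM per kb and Dbp at 46.4 CPM per kb. Tef stood at 16.8, Bhlhe41 at 7.77, Hlf at 5.93 and Rora at 1.40 CPM per kb. The ranges of neighbours in this order overlapped, except for Hlf (3.06 to 8.41 CPM per kb) and Rora (0.479 to 2.62 CPM per kb). Tef was the steadiest member, with a 1.62-fold range between its lowest and highest mouse (63.3 to 103 CPM). Nfil3 varied most, over a 10.9-fold range from 31.7 to 345 CPM, followed by Bhlhe41 (11.6 to 121 CPM) and Dbp (15.2 to 140 CPM, 9.16-fold). Mice of the same group also differed from each other. The median ratio of the higher to the lower mouse was 1.48 for Nfil3 and 1.10 for Usp2, and the largest ratio was 3.62, for Dbp in the R6/2 control group.

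**Figure D1:**
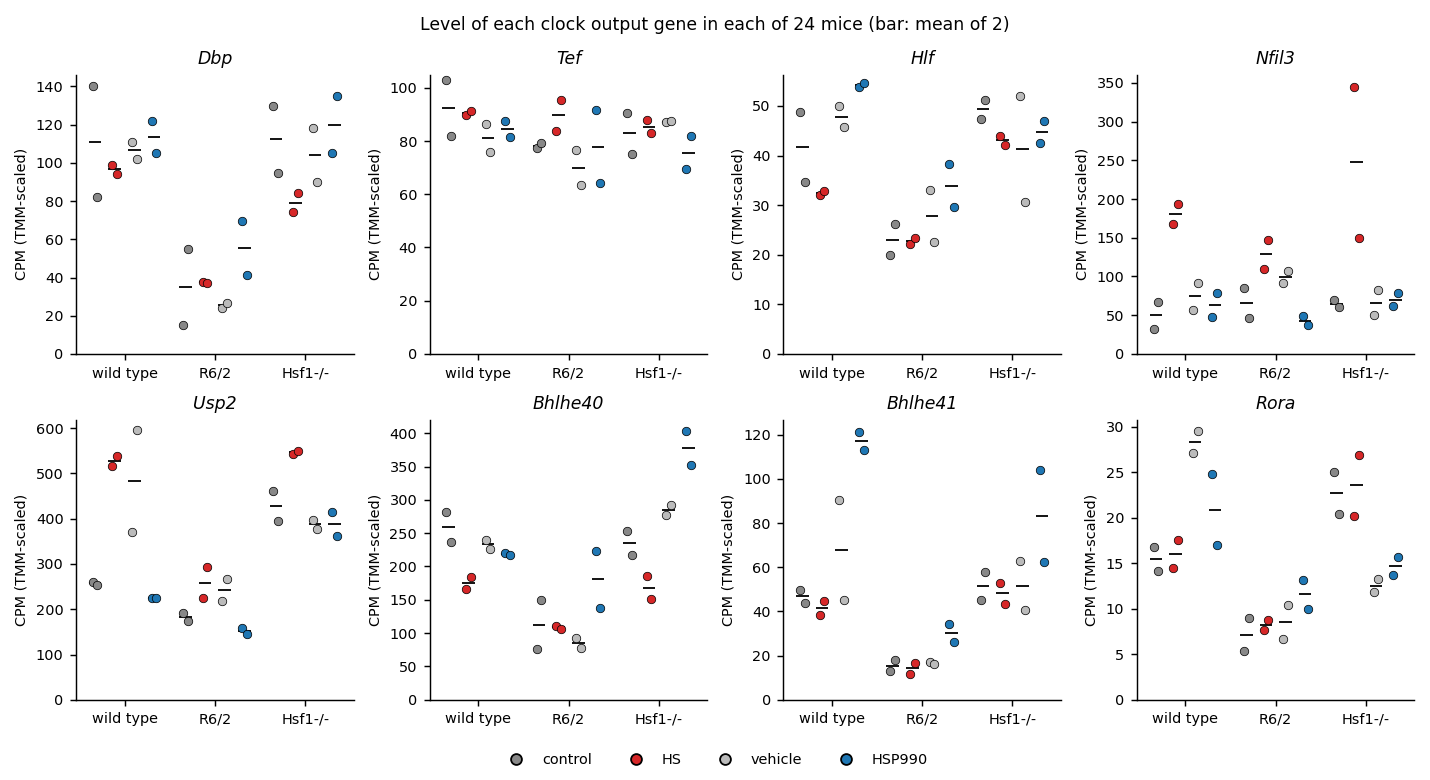
Level of each member in each mouse (CPM after TMM scaling, linear axis from 0), by genotype and treatment, with a bar at the mean of 2 mice. The HS mice lie above their controls for Nfil3 and Usp2 in all 3 genotypes, and the R6/2 mice lie low for Dbp, Bhlhe41 and Rora.

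After HS, Nfil3 and Usp2 were the members that rose, and the other 6 did not pass the test in any genotype. Differences were tested with edgeR's quasi-likelihood test on all 24 libraries and Benjamini-Hochberg adjustment over all genes of a comparison, and a gene was called at an adjusted p under 0.05. With 2 mice a side, the smallest p of an exact permutation test (two-sided) is 0.333. The p-values printed here therefore depend on an estimate of spread shared by all 12 groups. In wild type mice 2 of 8 members were called, both higher, where 2.06% of all genes tested were called. R6/2 mice gave 0 of 8 members, with 0.0436% of all genes called, and Hsf1-/- mice gave 0 of 8, with 0.00727% of all genes called. With an unadjusted p under 0.05 there were 2 members in R6/2 mice and 1 in Hsf1-/- mice, and DESeq2 called 0 and 1. Averaged over the 3 genotypes, 2 of 8 members were called, and 6.14% of all genes.

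Nfil3 (gene 18030; mm9 chromosome 13, 53062578 to 53076442, minus strand), the repressor of D-box genes, was measured at 31.7 and 67.6 CPM in wild type control mice and at 168 and 194 CPM in wild type HS mice. The R6/2 control mice were at 85.2 and 46.1 CPM and the R6/2 HS mice at 110 and 147 CPM. The Hsf1-/- control mice were at 69.6 and 60.4 CPM and the Hsf1-/- HS mice at 345 and 150 CPM. Both HS mice were above both controls in each genotype, and 1 Hsf1-/- HS mouse was the highest of all 24. The rise in wild type mice was 1.86 on the log2 scale (SE 0.43, adjusted p = 0.029, edgeR). Leaving out any of the 4 mice ended this call, at log2 fold changes of 1.42 to 2.51 and adjusted p-values of 0.052 to 0.36. The change was 0.97 (SE 0.41, adjusted p = 0.54) in R6/2 mice and 1.93 (SE 0.43, adjusted p = 0.089) in Hsf1-/- mice by edgeR. Averaged over genotypes it was 1.59 (SE 0.24, adjusted p = 9e-04, edgeR), and this call held with each of the 12 mice left out. The Hsf1-/- change was 1.21 without Hsf1-/- HS replicate 1, the mouse at 345 CPM (adjusted p = 0.75, edgeR), and 2.41 without Hsf1-/- HS replicate 2, where it was called (adjusted p = 0.042). The response of Hsf1-/- minus that of wild type mice was 0.06, with a 95% interval of -1.17 to 1.30, and it ranged from -0.66 (without Hsf1-/- HS replicate 1) to 0.54 (without Hsf1-/- HS replicate 2) with a mouse left out.

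Usp2 (gene 53376; mm9 chromosome 9, 43875104 to 43903708, plus strand) was at 261 and 254 CPM in wild type control mice and at 517 and 538 CPM in wild type HS mice. In R6/2 mice the controls were at 192 and 174 CPM and the HS mice at 224 and 294 CPM. In Hsf1-/- mice the controls were at 462 and 394 CPM and the HS mice at 544 and 550 CPM. The HS mice were again above the controls in all 3 genotypes. The log2 fold change was 1.03 in wild type mice (SE 0.18, adjusted p = 0.005, edgeR), 0.50 in R6/2 mice (SE 0.18, adjusted p = 0.39) and 0.35 in Hsf1-/- mice (SE 0.18, adjusted p = 0.61). Without wild type control replicate 1 or 2 the wild type call was lost (adjusted p = 0.087 and 0.07, edgeR), with log2 fold changes of 1.06 and 1.02. The average over genotypes was 0.63 (SE 0.10, adjusted p = 0.0013, edgeR), and it was called with each of the 12 mice left out.

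The responses to HS of R6/2 and Hsf1-/- mice were compared with that of wild type mice as interactions, and 0 of 8 members were called in either comparison by edgeR or by DESeq2. The share of all genes called was 0.0727% for R6/2 and 0.160% for Hsf1-/- mice. Usp2 was the 1 member with an unadjusted p under 0.05 in each. Its response was smaller than in wild type mice by an estimated -0.53 in R6/2 mice (SE 0.25, interval -1.06 to -0.01, adjusted p = 0.99, edgeR) and -0.68 in Hsf1-/- mice (SE 0.25, interval -1.21 to -0.16, adjusted p = 1). The Hsf1-/- HS mice (544 and 550 CPM) lay close to the wild type HS mice (517 and 538 CPM). The Hsf1-/- controls (462 and 394 CPM) lay above the wild type controls (261 and 254 CPM), which also differed from them in age and Y-linked transcripts.

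Among the members not called after HS, Bhlhe40 (gene 20893; mm9 chromosome 6, 108610623 to 108616919, plus strand) had the largest change in wild type mice. It stood at 282 and 237 CPM in the controls and 166 and 184 CPM in HS mice, and at 254 and 218 against 185 and 151 CPM in Hsf1-/- mice, with no overlap in either. R6/2 controls, at 75.7 and 150 CPM, spanned the R6/2 HS mice at 111 and 106 CPM. The log2 fold changes were -0.57 (adjusted p = 0.36, edgeR), -0.49 (adjusted p = 0.61) and -0.06 (adjusted p = 0.98), none past the threshold. The wild type change was called when only the 4 libraries compared were fitted (-0.56, adjusted p = 0.038, edgeR). Averaged over genotypes the value was -0.37 (SE 0.14, adjusted p = 0.15, edgeR), called without R6/2 control replicate 1 (adjusted p = 0.012) and with library size scaling (-0.47, adjusted p = 0.041). Hlf had HS mice below the controls in wild type (-0.36, adjusted p = 0.61) and Hsf1-/- mice (-0.20, adjusted p = 0.89). Dbp, Tef, Bhlhe41 and Rora had log2 fold changes of -0.50 to 0.20 in the 3 genotypes, with adjusted p-values of 0.81 to 0.99. Hsf1-/- HS mice lay below their controls for Dbp (74.3 and 84 against 130 and 94.6 CPM). R6/2 HS mice lay above theirs for Tef (83.9 and 95.4 against 77.5 and 79.1 CPM). In the other comparisons of these genes the mice overlapped.

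**Figure D2:**
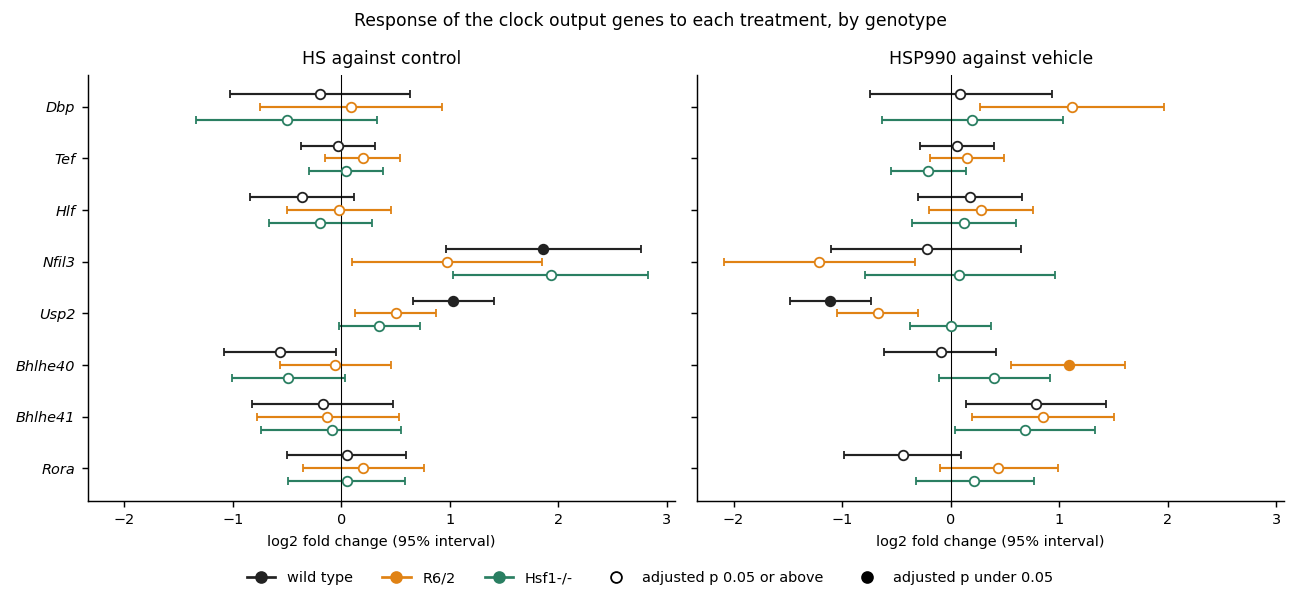
Log2 fold change of each member after HS (left) and after HSP990 (right) in the 3 genotypes, with 95% intervals and filled points where the adjusted p was under 0.05. After HS the points of Nfil3 and Usp2 lie to the right (1.86 and 1.03 in wild type mice), and after HSP990 the wild type point of Usp2 lies to the left (-1.11).

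HSP990 moved Usp2 downwards in wild type mice and moved Bhlhe40 upwards in R6/2 mice, and over the 3 genotypes Bhlhe41 was higher. The count of members called was 1 of 8 in wild type mice (1.85% of all genes), 1 of 8 in R6/2 mice (1.43% of all genes) and 0 of 8 in Hsf1-/- mice (0.218% of all genes). In Hsf1-/- mice 1 member had an unadjusted p under 0.05 and DESeq2 called 0. Averaged over genotypes, 2 of 8 members were called, 1 in each direction, and 4.65% of all genes.

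Usp2 was at 371 and 595 CPM in wild type vehicle mice and at 225 and 224 CPM in wild type HSP990 mice. In R6/2 mice it was at 219 and 267 CPM with vehicle and at 159 and 146 CPM with HSP990. In Hsf1-/- mice the levels were 397 and 378 CPM with vehicle and 414 and 362 CPM with HSP990. HSP990 mice were thus below the vehicle mice in 2 genotypes and overlapped them in Hsf1-/- mice. The log2 fold change was -1.11 in wild type mice (SE 0.18, adjusted p = 0.0023, edgeR), -0.67 in R6/2 mice (SE 0.18, adjusted p = 0.079) and 0.00 in Hsf1-/- mice (SE 0.18, interval -0.37 to 0.37, adjusted p = 1). Both wild type vehicle mice were above the wild type control mice of the HS experiment (261 and 254 CPM), and without wild type vehicle replicate 2, the mouse at 595 CPM, the change was -0.73 and the call was lost (adjusted p = 0.074, edgeR). It was also lost when only the 4 libraries compared were fitted (adjusted p = 0.087). The average over genotypes was -0.59 (SE 0.10, adjusted p = 0.002, edgeR), called with each of the 12 mice left out.

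The response of Usp2 to HSP990 in Hsf1-/- mice differed from that in wild type mice by 1.11 (SE 0.25, interval 0.58 to 1.64), which did not pass the threshold (adjusted p = 0.076, edgeR) but was called by DESeq2, with library size scaling (1.21, adjusted p = 0.045) and without wild type vehicle replicate 1 (adjusted p = 0.0043). Over all 8 members, edgeR called 0 in this interaction, in which 0.422% of all genes were called. Usp2 was the 1 member with an unadjusted p under 0.05. The R6/2 interaction gave 0 of 8 members by edgeR and by DESeq2, 2 of them with an unadjusted p under 0.05, and the share of all genes called there was 0%, with 981 genes at an unadjusted p under 0.05 and 46 called by DESeq2.

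Bhlhe40, the more abundant of the pair of BHLHE repressors, was at 92.2 and 77.9 CPM in R6/2 vehicle mice and at 224 and 137 CPM in R6/2 HSP990 mice. In wild type mice it was at 240 and 227 CPM with vehicle and 221 and 217 CPM with HSP990. In Hsf1-/- mice it was at 278 and 293 CPM with vehicle and 403 and 353 CPM with HSP990, the highest levels of all 12 groups. The rise in R6/2 mice was 1.09 (SE 0.25, adjusted p = 0.035, edgeR), beside -0.09 in wild type (SE 0.24, adjusted p = 0.91) and 0.40 in Hsf1-/- mice (SE 0.24, adjusted p = 0.65). The R6/2 call was lost without R6/2 vehicle replicate 1 (1.21, adjusted p = 0.084, edgeR), without R6/2 vehicle replicate 2 (0.97, adjusted p = 0.33) and without R6/2 HSP990 replicate 1, the mouse at 224 CPM (0.69, adjusted p = 0.51). It was also lost when only the 4 libraries compared were fitted (1.08, adjusted p = 0.25, edgeR). The average over genotypes was 0.47 (SE 0.14, adjusted p = 0.073, edgeR), called without R6/2 HSP990 replicate 2 (0.57, adjusted p = 0.025), with library size scaling (0.51, adjusted p = 0.036) and by DESeq2 (0.46, adjusted p = 0.025).

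Bhlhe41 (gene 79362; mm9 chromosome 6, 145806763 to 145814078, minus strand), the other BHLHE repressor, was at 90.5 and 45.1 CPM in wild type vehicle mice and 121 and 113 CPM in wild type HSP990 mice. R6/2 mice had 17.2 and 16.4 CPM with vehicle and 34.4 and 26.2 CPM with HSP990. Hsf1-/- mice had 62.9 and 40.5 CPM with vehicle and 104 and 62.5 CPM with HSP990. The groups did not overlap in wild type and R6/2 mice and overlapped in Hsf1-/- mice. The log2 fold changes of 0.79, 0.85 and 0.69 lay close together, with none called in a single genotype (adjusted p = 0.25, 0.29 and 0.5, edgeR). Averaged over genotypes the rise was 0.78 (SE 0.18, adjusted p = 0.016, edgeR). This call was lost without wild type vehicle replicate 2, R6/2 HSP990 replicate 1, Hsf1-/- vehicle replicate 2 or Hsf1-/- HSP990 replicate 1 (0.64 to 0.71, adjusted p = 0.053 to 0.062, edgeR) and with the HSP990 and vehicle libraries fitted alone (adjusted p = 0.069).

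The D-box factors were not called after HSP990 in any genotype. Dbp (gene 13170; mm9 chromosome 7, 52960458 to 52965525, plus strand) had its largest change in R6/2 mice, from 24.2 and 26.9 CPM with vehicle to 69.5 and 41.5 CPM with HSP990, a log2 fold change of 1.12 (SE 0.40, adjusted p = 0.28, edgeR). In wild type and Hsf1-/- mice the change of Dbp was 0.09 and 0.20. Nfil3 in R6/2 mice was at 91 and 107 CPM with vehicle and 48.6 and 36.9 CPM with HSP990, without overlap, but at -1.21 (SE 0.42) it did not pass the test (adjusted p = 0.25, edgeR). Tef and Hlf changed by -0.21 to 0.28 over the 3 genotypes, with adjusted p-values of 0.74 to 0.92. The HSP990 mice lay above the vehicle mice for Hlf in wild type and below them for Tef in Hsf1-/- mice. Rora, the least abundant member, had values of -0.44 in wild type, 0.44 in R6/2 and 0.22 in Hsf1-/- mice, with adjusted p-values of 0.5 to 0.85.

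The responses to HS and to HSP990 were then compared with each other within each genotype, as the HS response minus the HSP990 response. For Usp2 this difference was 1.18 in R6/2 mice (SE 0.25, adjusted p = 0.02, edgeR) and 0.35 in Hsf1-/- mice (SE 0.25, interval -0.17 to 0.88, adjusted p = 0.65), beside 2.14 in wild type mice (adjusted p = 0.00084). The R6/2 call was lost in 5 of the 8 fits with a mouse left out, those without R6/2 control replicate 2, R6/2 HS replicate 2, R6/2 vehicle replicate 2, R6/2 HSP990 replicate 1 or R6/2 HSP990 replicate 2 (0.97 to 1.24, adjusted p = 0.051 to 0.13, edgeR). Usp2 was the 1 member called in wild type mice, with 2.38% of all genes called, and the 1 called in R6/2 mice, with 1.63%. No member was called in Hsf1-/- mice by edgeR or by DESeq2, where 0.145% of all genes were called and 2 members had an unadjusted p under 0.05. For Nfil3 the differences were 2.09 in wild type, 2.18 in R6/2 and 1.85 in Hsf1-/- mice, none past the threshold in a single genotype (adjusted p = 0.078, 0.079 and 0.26, edgeR).

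Averaged over the 3 genotypes, 4 of 8 members differed between the treatments, 2 in each direction, with 7.58% of all genes called. Nfil3 was 2.04 higher in the response to HS (SE 0.34, adjusted p = 0.0011, edgeR) and Usp2 1.22 higher (SE 0.14, adjusted p = 5.2e-05). The BHLHE repressors had the opposite sign, with -0.84 for Bhlhe40 (SE 0.20, adjusted p = 0.015, edgeR) and -0.91 for Bhlhe41 (SE 0.25, adjusted p = 0.035). The calls of Nfil3, Usp2 and Bhlhe40 held with each of the 24 mice left out. That of Bhlhe41 was lost in 13 of the 24 fits, with adjusted p-values of up to 0.075 and log2 differences of -1.10 to -0.77 over the 24 fits. The 13 mice were replicate 1 of wild type control, wild type HS, R6/2 HS, R6/2 HSP990 and Hsf1-/- HSP990, replicate 2 of wild type vehicle, R6/2 control, R6/2 vehicle, Hsf1-/- control, Hsf1-/- HS and Hsf1-/- vehicle, and both wild type HSP990 mice. The 2 experiments differed in Y-linked transcripts in wild type and R6/2 mice and in age in Hsf1-/- mice, and the parts of treatment and experiment in these differences cannot be told apart beyond the subtraction of each experiment's own control. Among the marker lists, Tek and Kdr of endothelium and Lum of fibroblasts had the same sign as the BHLHE repressors (-1.11, -1.27 and -0.70), as did Tek, Lum and the leukocyte gene Lyz2 in wild type mice. These markers are named because they were the ones called. No other gene of these lists (6 tested in each) was called in these differences. Cldn5 of endothelium was higher after both treatments, averaged over genotypes (1.41 after HS and 1.15 after HSP990). The part of these markers in the differences was not tested.

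The controls of the 2 experiments were compared directly to show how far the baselines differed. Of the 8 members, 0 were called between vehicle and control mice averaged over genotypes by edgeR, and 0.145% of all genes. Usp2 had the 1 unadjusted p under 0.05, with vehicle higher by 0.39 (SE 0.10, adjusted p = 0.16, edgeR), and was called by DESeq2 and without wild type vehicle replicate 1 (adjusted p = 0.026). Usp2 vehicle mice were above the controls in wild type (371 and 595 against 261 and 254 CPM) and R6/2 mice (219 and 267 against 192 and 174 CPM). In Hsf1-/- mice the groups overlapped (397 and 378 against 462 and 394 CPM). Rora (gene 19883; mm9 chromosome 9, 68501593 to 69236053, plus strand) was at 16.8 and 14.2 CPM in wild type control mice and at 27.1 and 29.5 CPM in wild type vehicle mice, but at 25 and 20.4 CPM in Hsf1-/- control mice and at 11.8 and 13.3 CPM in Hsf1-/- vehicle mice. Its baseline thus lay on opposite sides in those genotypes, and this difference was not tested.

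In mice given neither HS nor HSP990, most members were lower in R6/2 than in wild type muscle taken in the afternoon. Levels at other times of day were not measured. A lower level over the whole day and a shift in its timing therefore cannot be told apart. Over the control and vehicle groups together, 6 of 8 members were called, all lower, beside 30.5% of all genes tested, of which 2075 were higher and 2119 lower. The median log2 fold change was -1.07 over the 8 members and 0.05 over all genes. Each of these 6 calls held with each of the 8 mice left out. The members not called were Tef (-0.22, SE 0.11, adjusted p = 0.15, edgeR) and Nfil3 (0.41, SE 0.29, adjusted p = 0.32).

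Dbp, a D-box activator that is strongly rhythmic in many tissues, was at 82.1 to 140 CPM in the 4 untreated wild type mice (140 and 82.1 in controls, 111 and 102 with vehicle). The 4 untreated R6/2 mice were at 15.2 and 55.1 CPM in the control group and at 24.2 and 26.9 CPM in the vehicle group, all below every wild type mouse. The log2 fold change was -1.86 (SE 0.29, adjusted p = 0.00014, edgeR). Hlf (gene 217082; mm9 chromosome 11, 90197849 to 90252231, minus strand) was at 48.8, 34.7, 49.9 and 45.8 CPM in the wild type mice and at 19.9, 26.2, 33.1 and 22.6 CPM in the R6/2 mice, again without overlap, a change of -0.82 (SE 0.16, adjusted p = 0.0011, edgeR). Tef (gene 21685; mm9 chromosome 15, 81632851 to 81657291, plus strand), the third activator, was at 75.9 to 103 CPM and 63.3 to 79.1 CPM, with overlapping ranges.

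Both BHLHE repressors were lower in untreated R6/2 mice. Bhlhe41 was at 43.7 to 90.5 CPM in wild type and at 13.1 to 17.9 CPM in R6/2 mice, a change of -1.80 (SE 0.22, adjusted p = 1.9e-05, edgeR). Bhlhe40 was at 227 to 282 CPM in wild type and 75.7 to 150 CPM in R6/2 mice, a change of -1.33 (SE 0.18, adjusted p = 3.5e-05, edgeR). Rora was at 14.2 to 29.5 CPM in wild type and 5.4 to 10.4 CPM in R6/2 mice, a change of -1.42 (SE 0.19, adjusted p = 3.2e-05, edgeR). The ranges of these 3 genes did not overlap between the genotypes. The share of all genes that separated like them, or like Dbp and Hlf, was not determined. Usp2 was at 254 to 595 CPM in wild type and 174 to 267 CPM in R6/2 mice, with an overlap of single mice, a change of -0.74 (SE 0.12, adjusted p = 3e-04, edgeR). In the control groups alone 5 of 8 members were called, all lower, without Usp2 (-0.49, adjusted p = 0.078, edgeR), and in the vehicle groups alone the same 6 as over both.

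**Figure D3:**
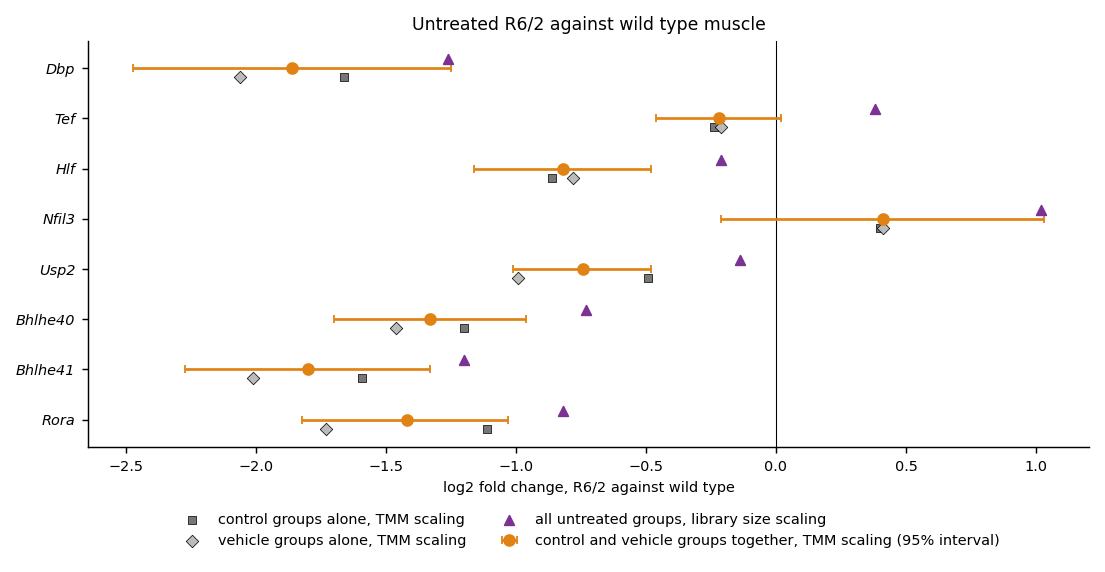
Log2 fold change of each member between untreated R6/2 and wild type mice, over all untreated groups with 95% intervals, in the control and vehicle groups alone, and with library size scaling. With TMM scaling 7 of 8 points lie left of 0, and with library size scaling all 8 move to the right and Tef and Nfil3 lie at 0.38 and 1.02.

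The calls of 4 members in R6/2 mice, and the direction of Tef, depended on the scaling. The R6/2 libraries had another composition, with 14.66 to 21.92% of counts in their 20 most abundant genes against 32.72 to 40.05% in the others. Library size scaling moved the median of all genes in this comparison from 0.05 to 0.66. Dbp, Bhlhe40, Bhlhe41 and Rora were lower and called under both scalings, at -1.26, -0.73, -1.20 and -0.82 with library size. Hlf (-0.21, adjusted p = 0.24, edgeR) and Usp2 (-0.14, adjusted p = 0.34) were not called with library size, while Tef (0.38, adjusted p = 0.0048) and Nfil3 (1.02, adjusted p = 0.005) were called higher. Markers of skeletal muscle moved with the genotype too. Of these, 7 of 8 were called lower in untreated R6/2 mice and 0 higher, with a summed level of 43410 to 72220 CPM against 192600 to 220900 CPM in wild type mice. The adipocyte list had 2 of 6 genes lower (Plin1 and Cidec) at a summed 56.9 to 127 against 85 to 672 CPM. The leukocyte list had 1 of 6 higher (Lyz2) at 48.8 to 74.2 against 37 to 65.5 CPM, and the fibroblast list 1 of 6 higher (Pdgfra) at 813 to 1257 against 948 to 1527 CPM, and the slow muscle fibre, endothelium, Schwann cell and red blood cell lists had 0 called (of 6, 6, 5 and 4 tested). The part of these lists in the lower levels of the members was not tested.

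In untreated Hsf1-/- mice 0 of 8 members were called against wild type mice over the control and vehicle groups, by edgeR and by DESeq2, and 0 had an unadjusted p under 0.05, beside 0.974% of all genes called. The values were -0.31 to 0.21. Dbp (89.8 to 130 CPM) and Hlf (30.6 to 52.1 CPM) in the 4 Hsf1-/- mice overlapped the wild type mice. In the control groups alone Usp2 was higher in Hsf1-/- mice, at 462 and 394 CPM against 261 and 254 CPM, by 0.73 (SE 0.18, adjusted p = 0.045, edgeR). In the vehicle groups alone the value was -0.32 (SE 0.18, adjusted p = 0.63). Rora was at 0.55 (adjusted p = 0.27, edgeR) in the control groups alone and at -1.17 (adjusted p = 0.11) in the vehicle groups alone. The Y-linked genes differed between these genotypes in the control groups and not in the vehicle groups, and the age differed in both.

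Because DBP, TEF and HLF activate the D-box genes that NFIL3 represses, the summed level of the 3 activators was set against that of Nfil3, per kb of exon, in each mouse. In the 6 HS mice the ratio was 0.388 to 0.948, so that Nfil3 was above the 3 activators together in each of them. In wild type mice the control ratios were 6.79 and 2.03 and the HS ratios 0.944 and 0.797. In Hsf1-/- mice they were 2.86 and 2.55 in controls and 0.388 and 0.948 after HS. The R6/2 controls lay apart from each other at 0.648 and 2.24 and overlapped the R6/2 HS mice at 0.764 and 0.598. The R6/2 vehicle mice, at 0.760 and 0.594, were below every vehicle mouse of the other genotypes, and the R6/2 HSP990 mice, at 2.64 and 2.24, lay between the wild type HSP990 mice at 3.96 and 2.16. These ratios are built from the levels above and carry no test of their own.

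**Figure D4:**
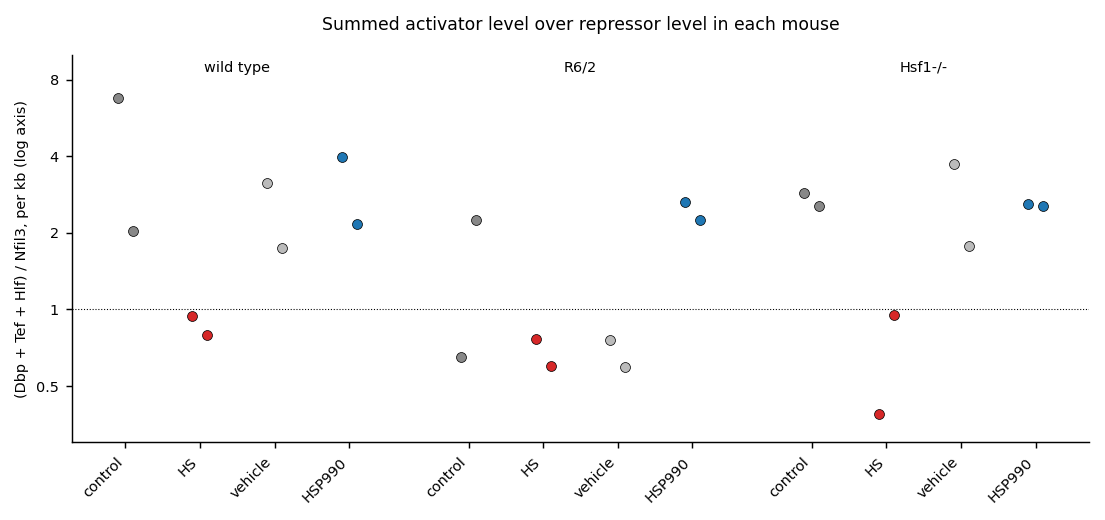
Ratio of the summed levels of Dbp, Tef and Hlf to that of Nfil3, per kb of exon, in each mouse (log axis, dotted line at a ratio of 1). The 6 HS mice lie below 1, as do the R6/2 vehicle mice and 1 R6/2 control mouse.

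Calls of core clock genes were set beside the share of all genes called. After HS that share was 2.06% in wild type, 0.0436% in R6/2 and 0.00727% in Hsf1-/- mice. After HSP990 it was 1.85%, 1.43% and 0.218%. Averaged over genotypes it was 6.14% after HS and 4.65% after HSP990. The 17 core clock genes included the CLOCK and BMAL1 activators and the PER, CRY and REV-ERB repressors. Of them, 0 were called after HS in any genotype. Averaged over genotypes 1 was higher after HS, near the share of all genes. That gene was Per1, a repressor of the clock that glucocorticoids are known to induce, at 1.02 (SE 0.23, adjusted p = 0.013, edgeR). After HSP990 Per1 was lower in R6/2 mice (-2.01, SE 0.41, adjusted p = 0.019, edgeR) and averaged -1.11 (SE 0.23, adjusted p = 0.0091), the 1 core clock gene called in these comparisons. The median log2 fold change of the 17 was -0.04 after HS and 0.10 after HSP990, averaged over genotypes, against -0.01 and 0.01 over all genes. Rorb and Fbxl21, counted among the 17, reached at most 0.166 and 0.413 CPM.

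Of 10 other genes that follow the clock, Tsc22d3, which encodes the glucocorticoid-induced leucine zipper, moved most often. It rose after HS in wild type mice (1.57, SE 0.24, adjusted p = 0.002, edgeR), the 1 gene of this list called there. It fell after HSP990 in R6/2 mice (-1.19, SE 0.24, adjusted p = 0.016, edgeR). Averaged over genotypes the list had 2 genes higher after HS, Tsc22d3 (1.01) and Wee1 (0.47), a kinase that holds back mitosis. HSP990 gave 1 higher, Lonrf3 (1.16), and 1 lower, Tsc22d3 (-0.64). The shares of all genes called in these comparisons are those given for the core clock. In the difference between the responses, Per1 (2.54 in wild type and 2.77 in R6/2 mice) and Tsc22d3 (2.04 in both) were called (adjusted p = 0.0038 to 0.024, edgeR). Averaged over genotypes, the differences were 2.14 for Per1, 1.65 for Tsc22d3 and 0.43 for Csnk1e, a clock kinase (adjusted p = 0.043, edgeR). Of all genes, 2.38% were called in this difference in wild type mice, 1.63% in R6/2 mice and 7.58% averaged over genotypes.

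A list of 9 glucocorticoid-responsive genes had 6 higher and 0 lower after HS in wild type mice, at a median of 2.25, and 0 called in R6/2 mice, at a median of 0.97. HSP990 left 3 of them lower in wild type mice (Fkbp5, Klf9 and Sgk1, named after their values were seen) and 5 lower in R6/2 mice (Cdkn1a, Ddit4, Fkbp5, Mt2 and Zbtb16, likewise), with 0 higher. Summed, the list was at 3149 to 3604 CPM with vehicle and 1368 to 1538 CPM with HSP990 in wild type mice, both above the wild type controls of the HS experiment. The R6/2 mice were at 2724 to 4500 CPM with vehicle, 1073 to 1689 CPM with HSP990 and 1613 to 4439 CPM in the controls. In Hsf1-/- mice 0 of the 9 were called after HS or HSP990, at medians of 0.55 and -0.54. Their summed level was 3473 to 3794 CPM in the Hsf1-/- controls and 4865 to 6046 CPM in the Hsf1-/- HS mice. In wild type mice it was 949 to 1083 CPM in the controls and 4258 to 5569 CPM after HS. The HS mice of these genotypes thus overlapped and their controls did not. Pdk4, at a mean of 2000 CPM, was the most abundant of the 9. Averaged over genotypes, 7 were higher after HS and 8 lower after HSP990, beside 6.14% and 4.65% of all genes called. After HS the share of all genes called was 2.06% in wild type, 0.0436% in R6/2 and 0.00727% in Hsf1-/- mice. After HSP990 it was 1.85%, 1.43% and 0.218%. All 9 genes had a positive change after HS in each genotype, so 0 calls do not show a lost response. In untreated mice 4 were higher and 2 lower in R6/2 (Cdkn1a, Ddit4, Errfi1 and Pdk4 against Sgk1 and Zbtb16, chosen after their values were seen), and Pdk4 alone was higher in Hsf1-/-. The shares of all genes called in these comparisons were 30.5% and 0.974%. Endothelial markers moved as well over the 3 genotypes, with Cldn5 (1.41) and Pecam1 (0.48) higher and Kdr (-1.06) and Tek (-0.58) lower after HS, and Cldn5 (1.15) and Tek (0.53) higher after HSP990. Of the 6 genes of the leukocyte list, Itgam (1.27 to 4.7 CPM) was the 1 called after HS over the 3 genotypes (0.78, higher). Lyz2 was the 1 called after HSP990 in wild type mice (1.07, higher). The median change of the list after HS was -0.28 in wild type, -0.22 in R6/2 and 0.57 in Hsf1-/- mice. After HSP990 in wild type mice it was 0.79. The part of these cell types and of glucocorticoid signals in the changes of the members was not tested.

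In untreated R6/2 mice the core clock was split, with 4 of 17 genes higher and 4 lower and a median of 0.08. Of all genes tested, 30.5% were called in this comparison. The 3 with the largest changes were Ciart, a repressor of CLOCK and BMAL1 (-1.43, SE 0.40, adjusted p = 0.013, edgeR), Nr1d1, which encodes REV-ERB alpha (-1.38, SE 0.24, adjusted p = 0.00036), and Npas2, a paralogue of Clock (1.06, SE 0.35, adjusted p = 0.029). The others were Clock (0.46), Cry2 (0.33) and Csnk1d (0.29), which were higher, and Nr1d2 (-0.64) and Per3 (-0.40), which were lower, and these 5 were named after their values were seen. Of the 10 other output genes, 3 were lower and 0 higher, near the 30.5% share of all genes, with a median of -0.28. They were Alas1, the first enzyme of haem synthesis (-0.99), Nampt, an enzyme of NAD salvage (-0.47), and Pdxk (-0.46), likewise named after their values were seen. Both lists were tested with TMM scaling alone, and library size scaling raised the median of all genes in the R6/2 comparison. How far the R6/2 calls of these lists depend on the scaling was not tested. In untreated Hsf1-/- mice 0 of 17 and 0 of 10 were called.

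**Figure D5:**
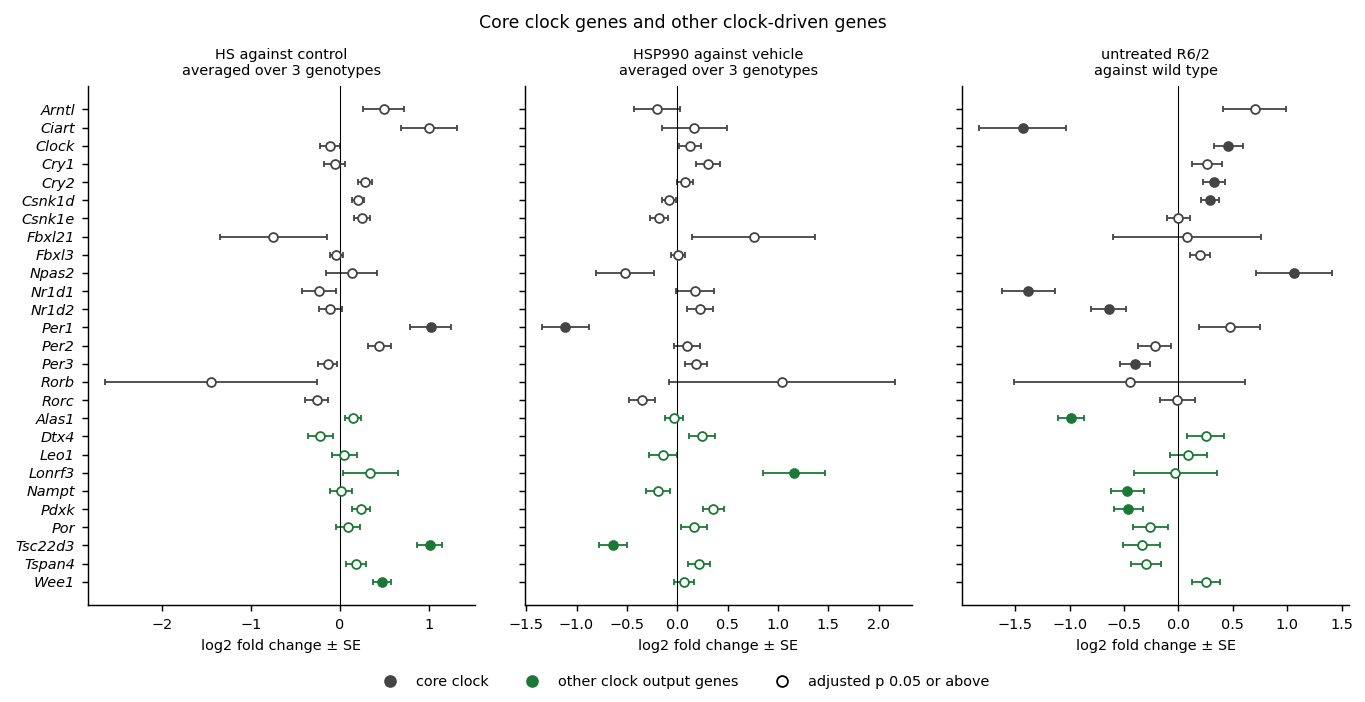
Log2 fold change with standard error of 17 core clock genes (grey) and 10 other clock output genes (green) after HS, after HSP990 and in untreated R6/2 mice, with filled points where the adjusted p was under 0.05. Per1 and Tsc22d3 lie to the right after HS (1.02 and 1.01) and to the left after HSP990 (-1.11 and -0.64), while the core clock is split in R6/2 mice.

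Across the 24 libraries the pairs among Dbp, Hlf, Bhlhe40, Bhlhe41 and Rora had correlations of 0.61 (Bhlhe40 with Rora) to 0.90. Outside these pairs only Usp2 with Rora (0.63) was above 0.61. Of the 28 pairs of members, 24 had a positive Pearson correlation of their log2 levels and 6 were at 0.80 or above, the highest between Dbp and Bhlhe40 (0.90). The 4 negative pairs all held Nfil3, with Dbp, Hlf, Bhlhe40 and Bhlhe41 (-0.18, -0.25, -0.33 and -0.19). Tef was at 0.13 to 0.43 with the other members, and Usp2 at 0.22 to 0.63, with 0.56 for Nfil3 and 0.51 for Dbp. The libraries share groups, and R6/2 mice are low in most members, so these values describe the spread over groups. Within a group, a pair of members was higher in the same mouse in a median of 7 of 12 groups, with 24 of the 28 pairs at 5 to 9. The extremes were Hlf with Bhlhe41 and Tef with Bhlhe40, in 10 of 12 groups, and Dbp and Bhlhe41 with Nfil3, in 4 of 12.

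Among 11119 genes with a mean of at least 1 CPM, the patterns most like each member over the 24 libraries were as follows. Usp2 was closest to Noct, a clock-controlled gene (0.94), and Ppp1r3c, a glycogen targeting subunit (0.94). Dbp was closest to Ak1, the adenylate kinase of muscle (0.95), and Ky (0.94), and Bhlhe40 to Ky (0.93) and Cers1 (0.91). Bhlhe41 was closest to Cited4 (0.92) and Shisa4 (0.92), Hlf to Tmtc1 (0.89) and to Bhlhe41 itself (0.89), and Rora to Ung (0.94) and Klf12 (0.93). Nfil3 was closest to Glt28d2 (0.88) and Osmr, a receptor of the interleukin 6 family (0.86). Tef, the steadiest member, had the weakest match, with Gatc (0.77) and Avil (0.73). These are correlations of log2 CPM over libraries that share groups, given as a description.

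Reads of other genes could enter some of these counts. In the GENCODE vM1 annotation of mm9, 491 bases of the Dbp exons (27.4%) lie over exons of Sphk2 on the opposite strand, and Usp2 shares 200 bases (4.56%) with Rnf26, also antisense. Tef, Bhlhe40 and Rora share 193, 118 and 82 bases with antisense non-coding genes, and Hlf, Nfil3 and Bhlhe41 share 0. The libraries were strand-specific, but whether strand was used in counting is not given in the sources used here, so reads of such pairs cannot be told apart. A near-identical copy elsewhere in the genome was found for 0 of the 8 members.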

How the data were processed

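Polyadenylated RNA of 24 muscles was sequenced by the authors as strand-specific paired reads, which they mapped to mm9 with Bowtie. They deposited raw gene counts, whole numbers without normalization, and tested them with DESeq2. The program and annotation used to count reads on genes are not given in the sources used here. Gene numbers were matched to symbols through a RefSeq table (18594 of 18669). Library totals were 22450177 to 46599238 counts.

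The filter of the study's methods, 2 or more counts in 10 or more of the 24 libraries, kept 13754 genes. Counts were scaled with TMM and fitted as 12 groups with edgeR 4.0.16 (R 4.3.3, limma 3.58.1), using the quasi-likelihood test on 12 residual degrees of freedom. Benjamini-Hochberg adjustment was over all genes of each of 19 contrasts, at a threshold of 0.05 with no fold cut-off. Interactions were contrasts of the same fit. Intervals are 95%. Correlations used log2(CPM + 0.5). Levels per kb used the union of exons of protein-coding transcripts in GENCODE vM1, and near-identical copies were searched for with minimap2 2.31-r1302 (divergence up to 0.02 across 50% or more of a transcript). The test was checked on simulated data. The labels describe the samples as separate mice, and counts of the 2 mice of a group differed beyond counting error (chi-square divided by its degrees of freedom, 19.42 to 110.2). This value was 54.3 to 110.2 in R6/2 groups, 24.44 to 33.69 in wild type groups and 19.42 to 79.13 in Hsf1-/- groups. Whether the spread shared by all 12 groups holds for R6/2 mice was not tested.

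The members, the gene lists and the comparisons were chosen with earlier results of these data known. All 8 members were named, with at most 3 called genes of the core clock and other output lists per comparison (those with the largest change), the 2 genes most like each member, and Hsf1. Where a list had 5 or fewer other calls, those genes were named too, after their values were seen. Alternatives were RLE size factors, library size scaling, TMM without the 20 most abundant genes, no filter, filterByExpr, DESeq2 1.42.0, only the groups compared, a replicate block and each mouse left out. Splitting the untreated comparisons into control and vehicle groups was added after seeing the data. Of the marker lists, 1 of 6 Schwann cell genes and 2 of 6 red blood cell genes were not analysed here.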

Additional observations from a re-analysis of the deposited data

Results flagged for a closer look

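For Bhlhe40 the HSP990 mice lay below the vehicle mice in wild type and above them in R6/2 and Hsf1-/- mice, with no overlap in any of the 3 genotypes. The log2 fold change was -0.09 in wild type mice against 1.09 in R6/2 mice and 0.40 in Hsf1-/- mice. Rora showed the same kind of split, at -0.44 in wild type and 0.22 in Hsf1-/- mice. These results were picked out because the mice of one group moved one way and those of the other group the opposite way, which is not itself a test of the difference. The interactions of the fit gave 1.18 for Bhlhe40 in R6/2 minus wild type mice (SE 0.35, interval 0.44 to 1.91, adjusted p = 0.47, edgeR), 0.50 for Bhlhe40 in Hsf1-/- minus wild type mice (adjusted p = 0.84) and 0.66 for Rora in Hsf1-/- minus wild type mice (adjusted p = 0.77). None of the 3 passed the threshold. Groups of 2 mice are too small for a test of single outlying mice.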

How the results depend on the processing

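Each result was recomputed under the alternatives, and the number of members called moved in some comparisons (the cause was not tested). DESeq2 called 1 member after HS in Hsf1-/- mice (Nfil3), 2 after HSP990 in R6/2 mice (Usp2 and Bhlhe40), 3 after HSP990 averaged over genotypes (Usp2, Bhlhe40 and Bhlhe41), 1 in the HSP990 interaction of Hsf1-/- mice (Usp2), 2 in the difference between treatments in wild type mice (Nfil3 and Usp2) and 3 in R6/2 mice (Nfil3, Usp2 and Bhlhe40), and 1 between vehicle and control mice (Usp2). Library size scaling called 2 members after HSP990 in R6/2 mice and 1 in the HSP990 interaction of Hsf1-/- mice, and turned Tef in untreated R6/2 mice to 0.38. Fitting only the groups compared, with fewer residual degrees of freedom, called 0 after HSP990 in wild type and in R6/2 mice, 1 averaged over genotypes and 0 in the difference between treatments in R6/2 mice, and it gained 1 call, Bhlhe40 after HS in wild type mice (-0.56). In the control groups alone 1 member was called in untreated Hsf1-/- mice. RLE size factors, TMM without the 20 most abundant genes, no filter and filterByExpr changed no call among the 35 pairs of member and comparison that were called in any fit.

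The replicate numbers only name mice: the correlations of same-numbered mice were -0.20 to 0.24 over the 6 group pairs, with both signs. With a replicate block 0 members were called after HSP990 in R6/2 mice (Bhlhe40, adjusted p = 0.057, edgeR) and 0 in the difference between treatments in R6/2 mice (Usp2, adjusted p = 0.074), and no other call changed.

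With each mouse left out in turn, the count of members called ranged from 0 to 1 after HS in wild type and in Hsf1-/- mice, 0 to 1 after HSP990 in wild type and in R6/2 mice, 2 to 3 after HS and 1 to 3 after HSP990 averaged over genotypes, 0 to 1 in the HSP990 interaction of Hsf1-/- mice, 1 to 2, 0 to 3 and 3 to 5 in the difference between treatments in wild type mice, in R6/2 mice and averaged, and 0 to 1 between vehicle and control mice. It was 6 in every fit of untreated R6/2 mice and 0 in the others. Calls gained this way, beside those in the report, were Nfil3 in the difference between treatments in wild type mice without wild type control replicate 2 (adjusted p = 0.049, edgeR), and Dbp and Bhlhe40 in the same difference in R6/2 mice (0.04 and 0.0084) and Dbp in its average (0.015) without R6/2 control replicate 1. A lone mouse was then assumed to vary like the other groups. A term for Y-linked transcripts was not run, because it is fixed by the groups. With 2 mice a group, the intervals are wide, and a change that missed the threshold is not shown to be absent.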
